A study of Gallus gallus with 8 samples.

Results

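The genes described here encode the ion channels, calcium pumps, sodium-potassium pumps, junctional proteins and acetylcholine receptors of 6-week broiler breast muscle. They were chosen by symbol in the authors' deposited table: every gene whose symbol starts with KCN, CACN, SCN and a digit, CLCN, RYR, TRPC, TRPM or TRPV and a digit, ATP1 or ATP2 and the letter A or B, CASQ, CHRN, JPH, STIM or ORAI, and ITPR1 to ITPR3. The rule found 46 of 17108 Ensembl genes, in 12 families, and all 46 passed the filter on low counts. That table lists 8076 genes, all of which passed this filter, so that genes with few reads could not become members. One of them, TRPC4AP, encodes a protein named for its link to a TRP channel and is not a channel itself. Of 33 core genes of muscle excitation looked for by symbol 25 were found. The other 8, among them RYR1, CASQ1, ATP2A1, KCNJ2, CHRNB1 and CHRNE, had no entry under that symbol and are not analysed here. Their absence does not show that their level was low.

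Messenger RNA of the pectoralis, the large breast muscle, was sequenced in 8 broilers, chickens grown for meat, all of them females of the Hubbard Flex type and 6 weeks old. The groups were 4 birds with high shear force of that muscle, called high-force here, and 4 with low shear force, called low-force. That force is measured by cutting through the meat and stands for its toughness. The labels give no treatment, no genotype and no further difference between the groups. The labels give 1 library per bird and 2 technical repetitions of sequencing.

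In a skeletal muscle fibre, acetylcholine released by the motor nerve opens receptor channels at the endplate, and sodium channels carry the resulting action potential along the membrane and into the transverse tubules. There the L-type calcium channel senses the voltage and acts on ryanodine receptors of the sarcoplasmic reticulum at a junction called the triad, and calcium held by calsequestrin is released to start contraction. Calcium pumps of the SERCA type return it to the reticulum, the sodium-potassium pump restores the ion gradients, and chloride and potassium channels bring the membrane back to rest. In the fast muscle of birds, the ryanodine receptor encoded by RYR3 works beside the form that matches mammalian RYR1.

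Levels are given as CPM, a gene's share of the library's counts after TMM scaling, always in the order of birds 1, 2, 3 and 4 of a group. Fold changes are on the log2 scale, high over low shear force, so that a negative value means a higher level in the low-force birds. Their SE was worked back from the F statistic of the edgeR quasi-likelihood test. Library totals ran from 5564905 to 7322205 expected counts and the groups overlapped (2-sided exact permutation p = 0.171, where 0.0286 is the smallest p that 8 birds allow). Low-force birds 1 and 3 stood apart from the other 6 birds on the first principal component, which held 32.4% of the variance, at 38.95 and 43.9 against -24.4 to -3.27. In these same 2 birds 8.45% and 6.3% of counts came from mitochondrial genes, against 9.87% to 15.2% in the other 6. Values that they move across 0 are given with and without them, and the part of RNA quality in these differences was not tested. Muscle fibre markers were abundant in all birds, with ACTA1 at 46500 ± 5252 CPM in high-force and 50390 ± 11680 CPM in low-force birds (SD, n = 4).

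No channel, pump or receptor gene passed the adjusted threshold between high and low shear force. By the edgeR quasi-likelihood test 0 of 46 had an adjusted p under 0.05 (background 0% of 10136 genes), with a smallest adjusted p of 0.313, for RYR3. DESeq2 also called 0 of 46, where it called 1.21% of the genes tested, and its smallest adjusted p was 0.13, again for RYR3, while limma-voom called 0 of 46 against a background of 0%. At an unadjusted p under 0.05 edgeR picked 4 members, or 8.7%, against a background of 12.8% of all genes. All 4 had a lower level in the high-force birds, a direction in which 4.91% of all genes passed, and 0 of 46 passed in the other, against 7.92%. Among them were RYR3, a calcium release channel, and the potassium channels KCNK1 and KCNQ5.

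Of the 46 members 29, or 63%, had a negative log2 fold change, against 49.2% of all genes, and the median was -0.085 against 0.0064 over all genes tested. Among the 7619 tested genes with a symbol, as every member has, 51.7% were negative and the median was -0.013. The balance of the members leaned on the 2 low-force birds that stood apart. Without them 17 of 46 were negative and 16 members turned their sign. The median was then 0.12, against 0.011 over all genes and -0.026 over genes with a symbol. In 12 members, or 26.1%, these were the 2 birds with the highest level, against 15.1% of all genes and 15.8% of those with a symbol. Birds of the 2 groups did not overlap in 2 members, KCNK1 and TRPC4AP, which is 4.35% against a background of 6.18%. Both were lower in the high-force birds, where the background is 2.29%, and 0 were higher, where it is 3.89%. Without low-force birds 1 and 3, 8 members, or 17.4%, had an unadjusted p under 0.05 in edgeR (background 7.51%), 5 with a higher and 3 with a lower level in high-force birds. These 2 birds were singled out by these same data, and only 2 low-force birds remain without them. Where they are the highest 2, leaving them out pushes the fold change up by construction. Values without them are therefore a description and not a test.

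**Figure D1:**
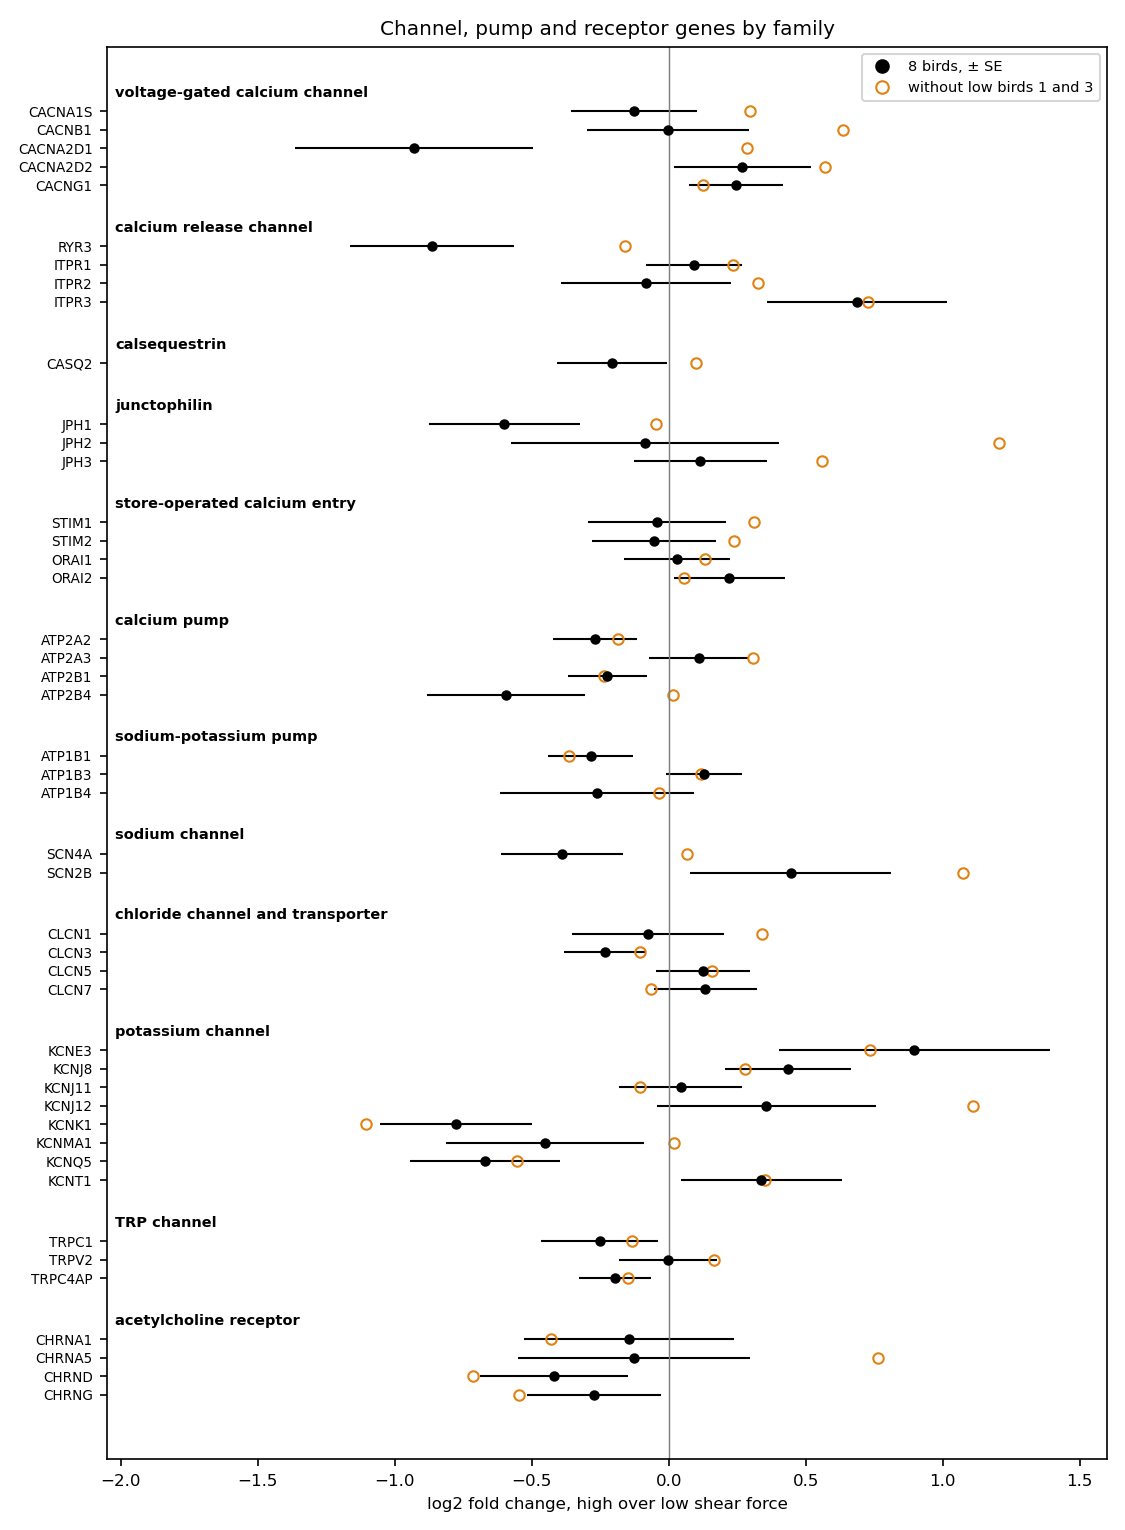
The log2 fold change (x axis, high over low shear force) of 45 of the 46 genes, grouped by family, with filled points and SE bars for all 8 birds and open points for the fit without low-force birds 1 and 3. The open points of CACNA2D1, RYR3, JPH1, ATP2B4 and SCN4A lie near 0 or on the other side of it, while those of KCNK1, KCNQ5, CHRND and CHRNG stay negative.

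The voltage sensor of the triad is a complex of subunits, and 5 genes of the voltage-gated calcium channel family were measured. CACNA1S encodes its pore and voltage sensor and lies on chromosome 26, 246613 to 275469, in the coordinates of the authors' table (galGal4 in the submitters' processing notes). It stood at 316, 288, 335 and 311 CPM in high-force and 494, 293, 373 and 203 CPM in low-force birds. The high-force birds lay within a narrow band, low-force birds 1 and 3 lay above all of them, and bird 4 lay below. Its log2 fold change was -0.13 ± 0.23 (SE; edgeR adjusted p = 0.84), or 0.30 ± 0.21 without low-force birds 1 and 3. CACNB1, the intracellular beta subunit, had 15.8, 14.6, 20.6 and 17 CPM against 25.5, 8.25, 21 and 13.1 CPM. Its groups overlapped fully, at -0.0019, but without low-force birds 1 and 3 the value was 0.64 ± 0.25 (unadjusted p = 0.0271, edgeR adjusted p = 0.624).

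CACNA2D1 encodes the extracellular alpha2-delta subunit and had the largest difference of the calcium channel genes. Its level was 69.3, 71.5, 73.5 and 52.2 CPM in the high-force birds and 183, 58.3, 217 and 48.4 CPM in the low-force birds. Low-force birds 1 and 3 stood far above every other bird, and birds 2 and 4 of that group lay among or below the high-force birds. The log2 fold change was -0.93 ± 0.43 (SE; edgeR unadjusted p = 0.0571, adjusted p = 0.403), and 0.29 ± 0.19 without these 2 birds. Its relative CACNA2D2 ran from 5.28 to 7.23 CPM in high-force and from 3.86 to 6.45 CPM in low-force birds, at 0.27 ± 0.25 (SE). CACNG1, the gamma subunit of the muscle channel, had the opposite sign to CACNA2D1, with 1315, 987, 1011 and 1245 CPM against 934, 1165, 864 and 879.9 CPM. Low-force birds 1, 3 and 4 were the lowest of the 8 birds and bird 2 lay among the high-force birds, for a log2 fold change of 0.25 ± 0.17 (SE; edgeR adjusted p = 0.555).

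Among the calcium release channels RYR3 had the smallest p of all members. The gene spans 184 kb on chromosome 5, 29439524 to 29623554. It stood at 613, 534, 584 and 432 CPM in high-force and 1318, 623, 1443 and 558 CPM in low-force birds. Again low-force birds 1 and 3 stood far above every high-force bird, bird 2 lay just above them, and bird 4 lay among them. The log2 fold change was -0.87 ± 0.30 (SE; edgeR unadjusted p = 0.0141, adjusted p = 0.313), and the exact permutation p of its log2 CPM was 0.114. It was -0.16 ± 0.20 once low-force birds 1 and 3 were left out (edgeR unadjusted p = 0.446), and with 1 bird left out it ran from -1.06 to -0.63.

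The inositol trisphosphate receptors, release channels that answer to hormones and growth factors, showed no common direction. ITPR1 had 18.4, 19.3, 17.1 and 16.3 CPM in high-force and 21.1, 13.9, 15.9 and 15.6 CPM in low-force birds, and its fold change was 0.094 ± 0.18 (log2, SE). Low-force bird 1 was the highest of the 8 birds and the other low-force birds were the lowest 3. ITPR2 ran from 6.87 to 17.3 CPM against 7.2 to 17.6 CPM, at -0.084 ± 0.31 (SE), or 0.33 ± 0.34 without low-force birds 1 and 3. ITPR3 was spread from 4.95 to 18.9 CPM in the high-force birds and ran from 6.72 to 8.23 CPM in the low-force birds. Its log2 fold change was 0.69 ± 0.33 (SE; edgeR unadjusted p = 0.0583, adjusted p = 0.404), with 3 of 4 high-force birds above all low-force birds and bird 1 below them.

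**Figure D2:**
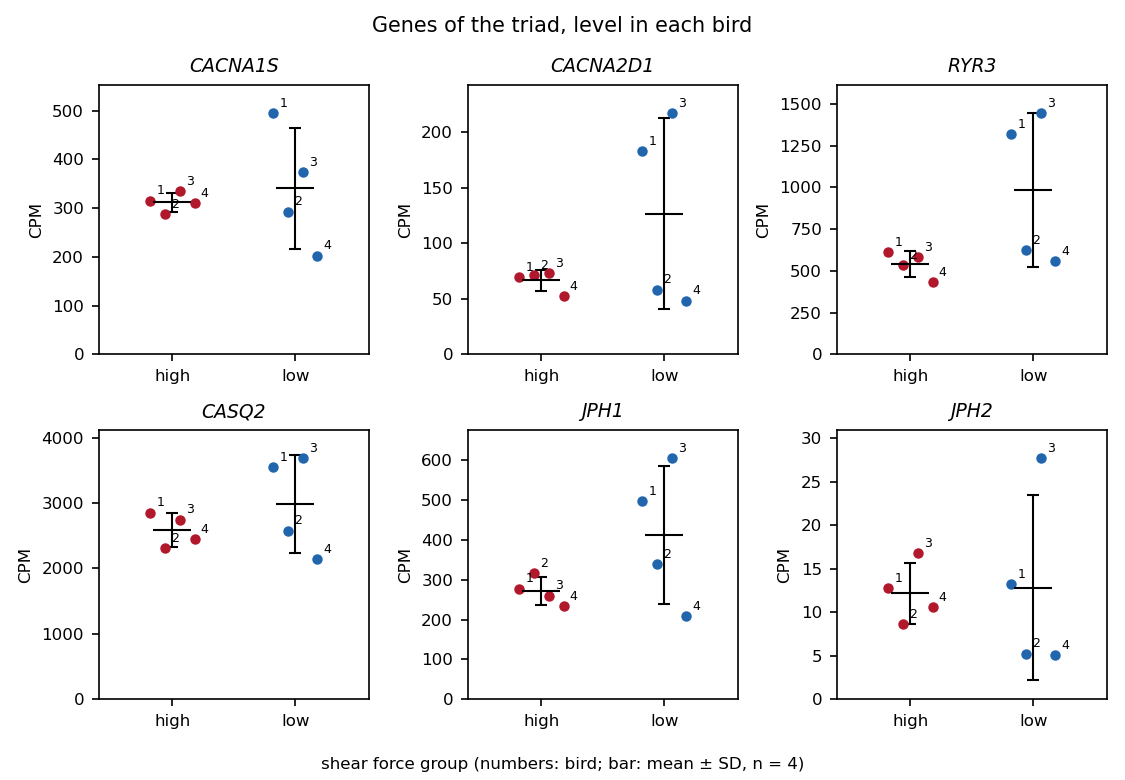
Level in CPM (y axis, from 0) of 6 genes of the triad in each high and low-force bird, with bird numbers and the mean ± SD of 4 birds. Low-force birds 1 and 3 are the highest 2 birds for CACNA1S, CACNA2D1, RYR3, CASQ2 and JPH1, and bird 3 is the highest for JPH2.

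CASQ2 encodes calsequestrin 2, which binds calcium inside the sarcoplasmic reticulum and in mammals is the form of the heart and of slow fibres. It stood at 2852, 2310, 2747 and 2444 CPM in high-force and 3547, 2578, 3681 and 2143 CPM in low-force birds. The same birds, low-force 1 and 3, were the highest and low-force bird 4 was the lowest, and the log2 fold change was -0.21 ± 0.20 (SE; edgeR adjusted p = 0.678), or 0.099 ± 0.21 without low-force birds 1 and 3. Junctophilins tether the sarcoplasmic reticulum to the transverse tubule. JPH1, the skeletal muscle form in mammals, had 277, 316, 260 and 233 CPM against 496, 339, 603 and 208 CPM. Low-force birds 1, 3 and 2 lay above all high-force birds and bird 4 below them, for a log2 fold change of -0.60 ± 0.28 (SE; edgeR unadjusted p = 0.0512, adjusted p = 0.393).

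Without low-force birds 1 and 3, JPH1 was at -0.045 ± 0.23 (SE). JPH2, shared by heart and skeletal muscle in mammals, stood at 12.8, 8.62, 16.8 and 10.6 CPM in high-force and 13.2, 5.26, 27.6 and 5.04 CPM in low-force birds. Low-force bird 3 was far above and birds 2 and 4 were below every other bird, and the log2 fold change was -0.086 ± 0.49 (SE). The value became 1.21 ± 0.31 without low-force birds 1 and 3 (unadjusted p = 0.00264, edgeR adjusted p = 0.462), from counts of 30 in each of the 2 remaining low-force birds. JPH3, known mainly from the mammalian brain, ran from 23 to 32.4 CPM against 16.1 to 38.2 CPM, at 0.11 ± 0.24 (SE), and at 0.56 ± 0.21 without these birds (edgeR unadjusted p = 0.0243).

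Store-operated calcium entry refills the sarcoplasmic reticulum through STIM proteins, which sense its calcium, and ORAI pores in the surface membrane. The 4 genes of this family had log2 fold changes from -0.055 to 0.22 and edgeR adjusted p from 0.661 to 0.96. STIM1 had 8.78, 9.31, 14.2 and 9.52 CPM against 13.2, 7.37, 13.4 and 9.07 CPM, where high-force bird 3 and low-force birds 1 and 3 were the highest. STIM2 had 8.94, 10.01, 8.53 and 7.33 CPM against 10.3, 6.67, 11.3 and 7.73 CPM, and ORAI1 had 8.3, 8.48, 8.28 and 7.33 CPM against 8.61, 7.72, 8.62 and 6.72 CPM. In both STIM2 and ORAI1 low-force birds 1 and 3 were the highest by a small margin, and the groups overlapped. Without these birds STIM1 was at 0.31 ± 0.27 and STIM2 at 0.24 ± 0.25. With all birds ORAI1 had a log2 fold change of 0.0305 ± 0.19 (SE). ORAI2 ran from 12 to 16.6 CPM in high-force and from 8.76 to 13.9 CPM in low-force birds, at 0.22 ± 0.20 (SE).

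Of the calcium pumps, 3 of 4 had a negative log2 fold change. ATP2A2, the SERCA pump of heart and slow muscle in mammals, stood at 46.9, 42, 46.7 and 59.3 CPM in high-force and 70.2, 52.3, 56.3 and 56 CPM in low-force birds. High-force birds 1 to 3 were the lowest of the 8 and bird 4 was second highest, for a log2 fold change of -0.27 ± 0.15 (SE; edgeR adjusted p = 0.472). ATP2A3, another SERCA pump, had 202, 160.4, 203 and 166 CPM against 178, 167, 210.5 and 122 CPM, at 0.11 ± 0.18 (SE), with low-force bird 4 well below the others. The pumps of the surface membrane are encoded by the ATP2B genes. ATP2B1 had 30.8, 27.1, 27.1 and 28.1 CPM against 35.3, 37.6, 31.8 and 27.6 CPM, where low-force birds 1 to 3 lay above all high-force birds, at -0.22 ± 0.14 (SE; edgeR adjusted p = 0.522; -0.24 ± 0.19 without birds 1 and 3).

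ATP2B4 stood at 41.7, 39.6, 64 and 37.8 CPM in high-force and 100.8, 44.9, 86.9 and 43.5 CPM in low-force birds. It followed RYR3 in that low-force birds 1 and 3 were the 2 highest birds while birds 2 and 4 lay between high-force bird 3 and the other high-force birds. Its log2 fold change was -0.59 ± 0.29 (SE; edgeR unadjusted p = 0.0632, adjusted p = 0.409), and 0.015 ± 0.22 without these 2 birds.

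The beta subunits of the sodium-potassium pump carry it to the membrane. ATP1B1 had 37.5, 49.2, 46.3 and 44 CPM against 62.2, 57.4, 42.3 and 53.9 CPM, and 3 of 4 low-force birds lay above all high-force birds. Its log2 fold change was -0.28 ± 0.16 (SE; edgeR adjusted p = 0.452), and -0.37 ± 0.17 without low-force birds 1 and 3. ATP1B3 ran from 23.1 to 27.5 CPM in high-force and from 21.6 to 24.2 CPM in low-force birds, at 0.13 ± 0.14 (SE). ATP1B4 is a pump subunit in birds, while in placental mammals its product sits in the nuclear envelope of muscle. It varied widely among the high-force birds, from 107 to 346 CPM, against 182 to 352 CPM in the low-force birds, at -0.26 ± 0.35 (SE).

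**Figure D3:**
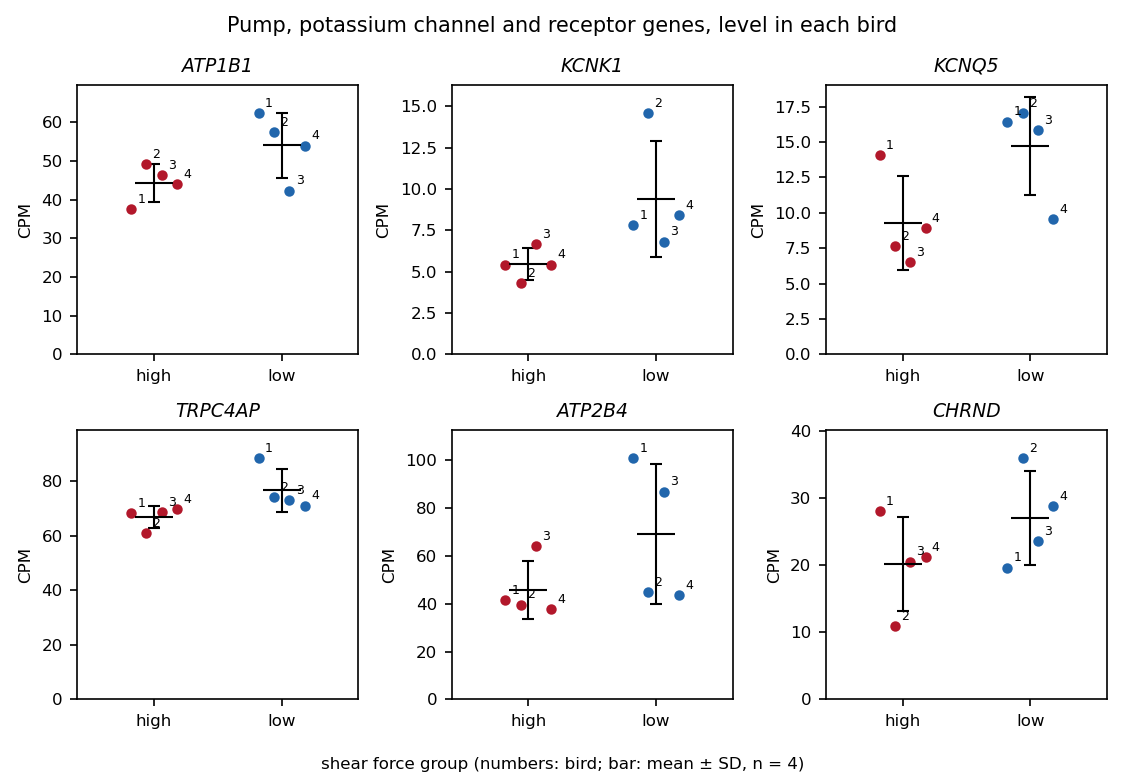
Level in CPM (y axis, from 0) of 6 genes in each high and low-force bird, with bird numbers and the mean ± SD of 4 birds. For KCNK1 and TRPC4AP every low-force bird lies above every high-force bird, while the groups overlap for ATP1B1, KCNQ5, ATP2B4 and CHRND.

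SCN4A encodes the sodium channel that carries the muscle action potential. Its level was 60.2, 52.1, 69.2 and 55.1 CPM in high-force and 104, 58.8, 95 and 51.6 CPM in low-force birds. The highest birds were low-force 1 and 3, and the log2 fold change was -0.39 ± 0.22 (SE; edgeR adjusted p = 0.468), or 0.066 ± 0.18 without them. SCN2B, an accessory beta subunit, ran from 7.65 to 11.3 CPM against 3.86 to 14.4 CPM, with low-force bird 3 the highest and the other 3 low-force birds below every high-force bird. It stood at 0.45 ± 0.37 (SE), and at 1.07 ± 0.29 without birds 1 and 3 (unadjusted p = 0.00362, edgeR adjusted p = 0.462). The value was 1.03 without low-force bird 3 alone.

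CLCN1 is the chloride channel that keeps the resting muscle membrane stable. It had 41.4, 18.6, 29.1 and 21.2 CPM in high-force and 38.6, 21.4, 34.6 and 21.2 CPM in low-force birds. In both groups birds 1 and 3 were high and birds 2 and 4 low, so that the groups overlapped fully, at -0.074 ± 0.28 (SE). CLCN3, CLCN5 and CLCN7, chloride-proton exchangers of endosomes and lysosomes, stood at -0.23 ± 0.15, 0.13 ± 0.17 and 0.13 ± 0.19 (SE). Of these, CLCN3 ran from 32.9 to 40.7 CPM against 35.8 to 48.9 CPM, and low-force birds 1 to 3 were above all high-force birds. CLCN5 ran from 13.6 to 17.5 CPM against 12.3 to 15.8 CPM, and CLCN7 from 11.7 to 13.7 CPM against 10.03 to 14.3 CPM. CLCN1 was at 0.34 ± 0.30 and CLCN7 at -0.063 ± 0.21 without low-force birds 1 and 3.

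Potassium channels split, with 5 of 8 higher and 3 lower in the high-force birds and a family median of 0.19. KCNK1 encodes a two-pore channel that carries background current, and lies on chromosome 3, 38006261 to 38036746. It stood at 5.43, 4.31, 6.65 and 5.42 CPM in high-force and 7.84, 14.6, 6.82 and 8.4 CPM in low-force birds. All 4 low-force birds lay above all 4 high-force birds, narrowly for low-force bird 3 against high-force bird 3, and low-force bird 2 was far above the rest. The lack of overlap alone sets the exact permutation p of KCNK1 at 0.0286, the smallest that 8 birds allow and the same as for TRPC4AP. The log2 fold change of KCNK1 was -0.78 ± 0.28 (SE, edgeR unadjusted p = 0.0164, adjusted p = 0.328). It was -1.10 ± 0.30 without low-force birds 1 and 3 (unadjusted p = 0.00319, edgeR adjusted p = 0.462), and without low-force bird 2 it was -0.52. Its counts ran from 31 to 83 reads per bird.

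KCNQ5, a voltage-gated channel of the M-current family on chromosome 3, 80962161 to 81225706, had 14.1, 7.65, 6.52 and 8.94 CPM against 16.4, 17, 15.8 and 9.58 CPM. Low-force birds 1 to 3 were the highest 3 birds, and low-force bird 4 lay below high-force bird 1. The log2 fold change was -0.67 ± 0.27 (SE; edgeR unadjusted p = 0.0303, adjusted p = 0.354, exact permutation p = 0.0571), and -0.55 ± 0.34 without low-force birds 1 and 3. KCNMA1, the large-conductance calcium-activated channel, had 9.58, 4.73, 8.53 and 3.22 CPM in high-force and 13.1, 6.67, 9.9 and 5.88 CPM in low-force birds. Low-force birds 1 and 3 were the highest and the groups overlapped, at -0.45 ± 0.36 (SE), and at 0.0196 ± 0.42 without these birds.

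The channels closed by ATP have pores encoded by KCNJ11, the muscle form, and KCNJ8, the form of vessel wall cells. KCNJ11 stood at 31.6, 18.9, 21.9 and 25.4 CPM in high-force and 21.2, 33.7, 22.4 and 17.6 CPM in low-force birds, with full overlap and a log2 fold change of 0.043 ± 0.22 (SE). KCNJ8 ran from 7.18 to 11.9 CPM against 5.38 to 8.25 CPM, at 0.44 ± 0.23 (SE; edgeR unadjusted p = 0.0848, adjusted p = 0.444). Of 10 listed markers of smooth muscle and pericytes 6 were measured and 5 were higher in the high-force birds, 4 of them with an unadjusted p under 0.05 in edgeR, where 7.92% of all genes passed in that direction. After adjustment edgeR called 0 of the 6, and DESeq2, which called 1.21% of all genes tested, called TAGLN (adjusted p = 0.00151) and MYLK (adjusted p = 0.0252). Their summed level ran from 992.5 to 1310 CPM in the high and from 998 to 1241 CPM in the low-force birds. Of 10 endothelial markers 9 were measured, with a summed level from 266.6 to 505.5 CPM against 225.3 to 378 CPM. All 9 were higher in the high-force birds, as were 5147 of all 10136 genes. In edgeR 4 of the 9 had an unadjusted p under 0.05, against 7.92% of all genes in that direction. Without low-force birds 1 and 3 only PLVAP of the 9 did (11.1% against 7.51% of all genes), and their median fell from 0.60 to 0.30. Of the 6 smooth muscle markers MYH11, MYLK and TAGLN did (50%). The smooth muscle sum is mostly DES, which muscle fibres share. TAGLN stood at 8.34 ± 2.21 against 2.71 ± 0.865 CPM and MYH11 at 25.7 ± 2.73 against 17.3 ± 3.36 CPM (SD, n = 4). ACTA2, CNN1, NOTCH3 and LMOD1 of that list are not analysed here, nor is the endothelial marker PECAM1, and the part of vessel cells in the KCNJ8 difference was not tested. In bulk muscle, fewer cells of a type and less RNA per cell cannot be told apart.

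KCNE3, an accessory subunit, had the largest positive log2 fold change of the 46 genes, 0.90 ± 0.50 (SE; edgeR adjusted p = 0.456). It ran from 2.71 to 12.4 CPM in high-force and from 2.46 to 5.38 CPM in low-force birds. High-force birds 3 and 4 were high and birds 1 and 2 lay among the low-force birds. KCNJ12, an inward rectifier, ran from 3.22 to 7.98 CPM against 2.11 to 5.68 CPM, at 0.36 ± 0.40 (SE), and at 1.11 ± 0.46 without low-force birds 1 and 3 (edgeR unadjusted p = 0.0333). KCNT1, a sodium-activated channel, ran from 8.35 to 9.59 CPM against 4.04 to 9.99 CPM, at 0.34 ± 0.29 (SE).

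The TRP channels TRPC1, a cation channel linked to calcium entry, and TRPV2, a cation channel of muscle and immune cells, stood at -0.25 ± 0.21 and -0.003 ± 0.18 (SE). TRPC1 ran from 10.9 to 15.2 CPM against 11.4 to 20.1 CPM, and TRPV2 from 22.8 to 30.4 CPM against 22 to 33.8 CPM, so that both overlapped. TRPC4AP, a scaffold and ubiquitin ligase adaptor, had 68.3, 61, 68.7 and 69.9 CPM in high-force and 88.3, 74.2, 73.2 and 71.1 CPM in low-force birds. The groups did not overlap, but their nearest birds lay close together, and the log2 fold change was small, -0.20 ± 0.13 (SE; edgeR unadjusted p = 0.163, adjusted p = 0.539).

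The acetylcholine receptor of the endplate is made of alpha, beta and delta subunits and a gamma or epsilon subunit, and in mammals the gamma form belongs to fetal or denervated muscle. All 4 receptor genes measured had a negative log2 fold change, with a median of -0.21, and none had an unadjusted p under 0.05 in edgeR. The median was -0.49 without low-force birds 1 and 3, where CHRNA5 was at 0.77 ± 0.40 and the other 3 stayed negative. With 1 bird left out CHRNA1 and CHRNA5 crossed 0. CHRND, the delta subunit, stood at 28.1, 11, 20.6 and 21.2 CPM in high-force and 19.7, 36, 23.7 and 28.9 CPM in low-force birds. Low-force bird 2 was the highest and high-force bird 2 the lowest, for a log2 fold change of -0.42 ± 0.27 (SE; edgeR adjusted p = 0.521), or -0.71 ± 0.30 without low-force birds 1 and 3 (edgeR unadjusted p = 0.0409). CHRNG, the gamma subunit, had 14.7, 9.73, 10.03 and 15.5 CPM against 14.8, 20.01, 10.16 and 15.6 CPM, at -0.27 ± 0.25 (SE; edgeR adjusted p = 0.654), or -0.55 ± 0.26 without low-force birds 1 and 3. CHRND and CHRNG are neighbours on chromosome 9, at 15076205 to 15079396 and 15080137 to 15084242, and high-force bird 2 had the lowest level of both and low-force bird 2 the highest. Of 10 markers of neurons and Schwann cells MBP and PMP22 were measured, and their summed level ran from 91.1 to 121.8 CPM in the high and from 54.4 to 78.6 CPM in the low-force birds. This sum is almost all PMP22, at 94.5 ± 13.9 against 61.8 ± 12.3 CPM (SD, n = 4), whereas MBP overlapped at 5.74 ± 1.97 against 6 ± 2.42 CPM. The groups did not overlap for PMP22, as for 3.89% of all genes in that direction. Its log2 fold change was 0.61 ± 0.17 (SE; edgeR unadjusted p = 0.00404, adjusted p = 0.231), and 0.35 ± 0.19 without low-force birds 1 and 3. Defining nerve markers such as SOX10 and NEFL are not analysed here, and the part of nerve tissue in the receptor values was not tested.

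CHRNA1, the acetylcholine-binding alpha subunit of muscle, had 7.66, 7.79, 4.01 and 3.66 CPM in high-force and 7.38, 5.09, 3.09 and 10.1 CPM in low-force birds. The groups overlapped fully, the birds came in another order than for CHRND, and the log2 fold change was -0.14 ± 0.38 (SE), from counts of 24 to 60 reads per bird. CHRNA5, a subunit of neuronal receptors, ran from 3.26 to 5.75 CPM against 2.02 to 9.9 CPM, with low-force bird 3 the highest and bird 4 the lowest of all, at -0.13 ± 0.42 (SE). The smallest and largest counts among all members were 12 and 28627 reads in a bird, and the 12 came from KCNJ12 and CHRNA5.

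**Figure D4:**
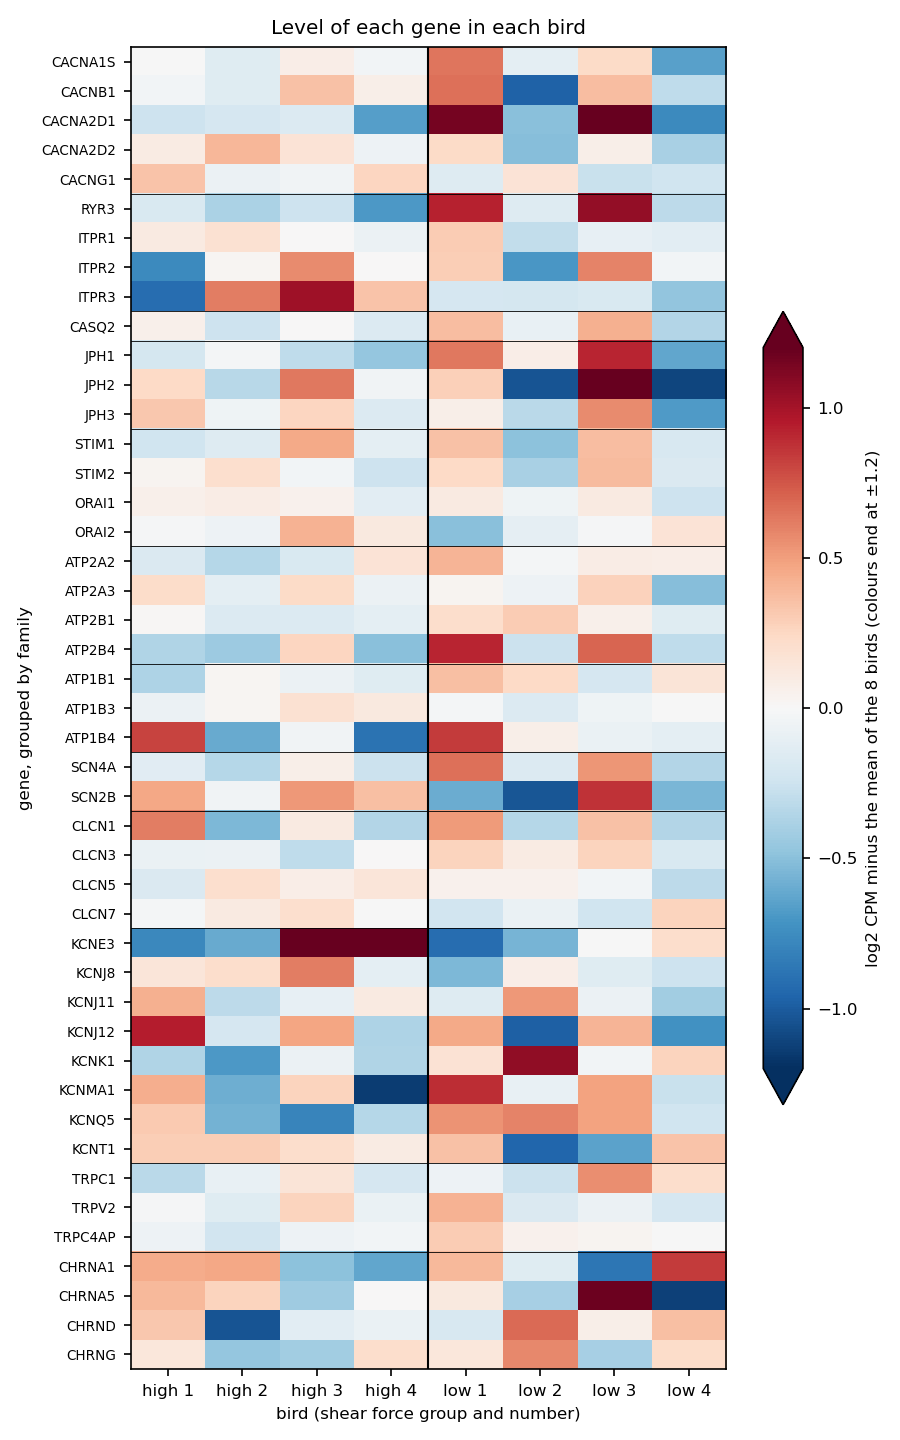
Level of 45 of the 46 genes (rows, grouped by family) in each bird (columns), as log2 CPM minus the mean of the 8 birds, with red for higher and blue for lower. Low-force birds 1 and 3 are red across the triad genes CACNA1S, CACNA2D1, RYR3, CASQ2 and JPH1, and low-force birds 2 and 4 are blue for CACNB1, JPH2, SCN2B and KCNJ12.

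Partner genes of the same system were counted from 2 lists. Of 45 genes of excitation-contraction coupling and calcium handling 22 were measured, and 16 of them had a negative log2 fold change, with a median of -0.33 against 0.0064 over all genes. By edgeR 0 passed the adjusted threshold (background 0%), and 7, or 31.8%, had an unadjusted p under 0.05 against the background of 12.8%, all 7 lower in the high-force birds, the direction of 4.91% of all genes. Only PPP3CA and PVALB, 2 of 22 or 9.09%, were under 0.05 without low-force birds 1 and 3, against 7.51% of all genes. PPP3CA, a catalytic subunit of the calcium-activated phosphatase calcineurin, stood at 229.8 ± 49.6 against 373 ± 88.6 CPM (SD, n = 4), or -0.70 ± 0.21 as log2 fold change (SE; edgeR unadjusted p = 0.00598, adjusted p = 0.258). Its groups did not overlap, as in 2.29% of all genes in that direction, and without low-force birds 1 and 3 it was at -0.83 ± 0.25. Of the other genes in this list only FXYD6 had groups without overlap. It was higher in the high-force birds, a direction in which 3.89% of all genes did not overlap, at 0.255 ± 0.13 (SE, edgeR unadjusted p = 0.0801).

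CAMK2G, a calmodulin-dependent kinase, stood at -0.47 ± 0.18 and TMEM38B, a cation channel of the sarcoplasmic reticulum, at -0.59 ± 0.22 (SE). PVALB, the calcium buffer parvalbumin, stood at -0.89 ± 0.35 (SE) from 9.36 ± 4.34 against 17.5 ± 5.62 CPM (SD, n = 4). MTM1, a lipid phosphatase needed for triads, stood at -0.78 ± 0.31 and BIN1, which shapes transverse tubules, at -0.78 ± 0.33 (SE). Without low-force birds 1 and 3 the values of CAMK2G, TMEM38B and PVALB were -0.44, -0.60 and -1.15, while MTM1 and BIN1 were at -0.11 and 0.039, and the median of the 22 was -0.087. The list drawn up for the neuromuscular junction held 20 genes, not all of them particular to it. Of these 13 were measured, with 8 higher and 5 lower and a median of 0.086. By edgeR 0 of these 13 had an unadjusted p under 0.05, against 12.8% of all genes, and 0 passed the adjusted threshold. Without low-force birds 1 and 3, DNM2 and RRAD of that list were under 0.05 before adjustment in edgeR, or 15.4% against 7.51% of all genes. They went in opposite directions, with log2 fold changes of 0.62 and -1.08. DESeq2 and limma-voom called 0 genes of either list.

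Several members with a large negative value are long genes. Among the 8076 genes with coordinates, Spearman's rho between log2 fold change and genomic span was -0.32, and over the 46 members it was -0.337, both across genes that share the same 8 libraries. In 4 equal classes of span, the longest, 33.4 to 699 kb, had a median log2 fold change of -0.11, and the shortest one of 0.16. Of the members 18 lie in that longest class. Without low-force birds 1 and 3 rho was 0.0181 over all these genes and -0.0797 over the members. With the trend removed, CACNA2D1 stood at -0.78, RYR3 at -0.73, KCNQ5 at -0.53 and KCNK1 at -0.68. CACNA2D1 spans 356 kb, KCNQ5 264 kb and KCNMA1 438 kb, whereas KCNK1 spans 30.5 kb. The part of this trend in the member values was not tested beyond this.

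**Figure D5:**
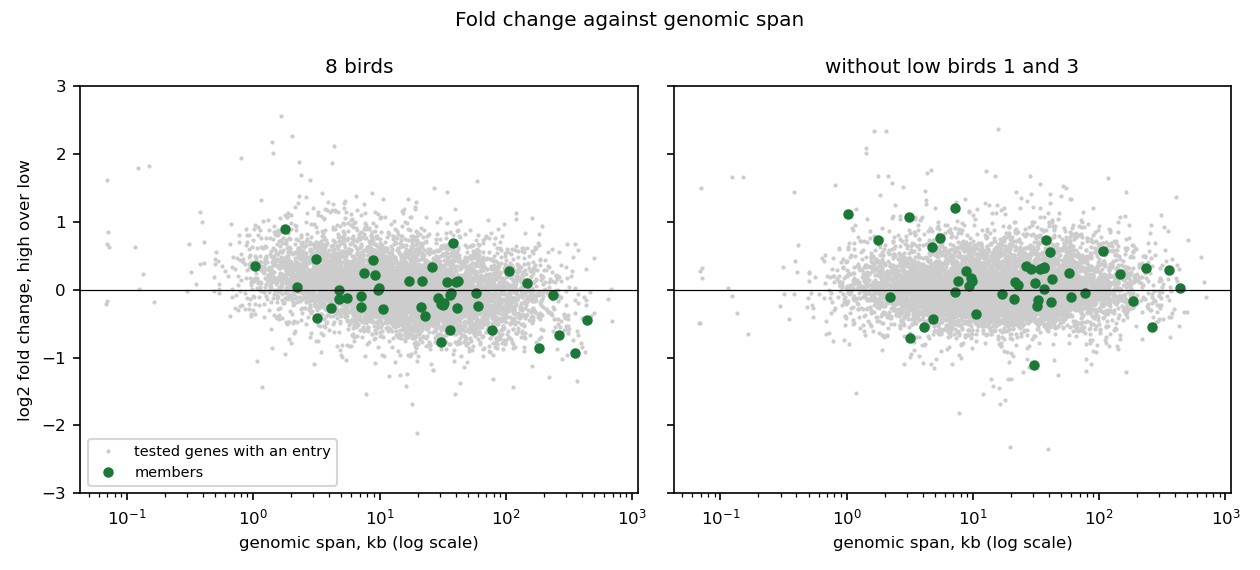
The log2 fold change (y axis, high over low shear force) against genomic span in kb (x axis, log scale), for all tested genes with coordinates (grey) and 45 of the 46 members (green), from all 8 birds at left and without low-force birds 1 and 3 at right. Spearman's rho over all 46 members is -0.337 at left, where the points trend downward, and -0.0797 at right.

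At the level of transcripts 48 were tested for 45 of the 46 genes, and 3 genes had 2 transcripts each. By edgeR 0 of 48 passed the adjusted threshold (background 0% of 10362 transcripts), and 5, or 10.4%, had an unadjusted p under 0.05 against a background of 12.4%. DESeq2 and limma-voom called 0 of 48 after adjustment. All 5 were lower in the high-force birds (background 4.83%), among them the single transcripts of RYR3, KCNK1 and KCNQ5 and 1 of 2 from ATP1B1. That transcript of ATP1B1 stood at 11.4 ± 3.49 against 19.6 ± 7.43 CPM (SD, n = 4), a difference of -0.77 ± 0.32 on the log2 scale (SE; edgeR unadjusted p = 0.0338, adjusted p = 0.374), and the other at -0.061 ± 0.16 (SE). Those of ATP2B1 stood at 0.30 ± 0.40 and -0.32 ± 0.15, and those of CACNA2D1 at -0.84 ± 0.42 and -1.27 ± 0.64 (SE). The difference between transcripts of a gene was not tested, and their counts come from the same reads as the gene counts.

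In the authors' deposited table, with its sign turned to high over low, 7 of the 46, or 15.2%, had an edgeR p under 0.05, against 12.7% of its 8076 genes. In the authors' deposited table all 7 were lower in the high-force birds, a direction in which 6.02% of its genes passed. In the authors' deposited table these included RYR3, CACNA2D1, JPH1, ATP2B4, KCNK1 and KCNQ5. The smallest adjusted p among the members in the authors' deposited table was 0.128 by edgeR and 0.127 by DESeq2, so that 0 of 46 passed there as well.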

How the data were processed

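Pectoralis RNA of 8 birds was stabilised in RNAlater, extracted with Trizol and made into TruSeq libraries, per the labels' protocols. The authors deposited expected counts (estimates that can be fractions, as 8.22% of the gene values were) for 17108 genes and 17954 transcripts, and a table of log2 fold changes with p-values and adjusted p-values from edgeR and DESeq2, per the file headers. Among the tools in the submitters' processing notes are RSEM, TopHat, Bowtie2, Cuffdiff, FastQC, edgeR and DESeq2, and the build is galGal4. The sources used here do not give versions, filters, strand or the joining of the 2 technical repetitions, so overlapping genes may share reads. Compared with the counts, the deposited fold changes run low over high, and their sign was turned.

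Counts were rounded and filtered with filterByExpr of edgeR 4.0.16 (10136 genes and 10362 transcripts kept), scaled by TMM and tested with the robust edgeR quasi-likelihood test in R 4.3.3, all p-values being 2-sided and adjusted by Benjamini-Hochberg over the whole table at 0.05. SEs are the size of the log2 fold change divided by the square root of the F statistic of that test, which does not report an SE itself. Alternatives used DESeq2 1.42.0, limma-voom 3.58.1, 2 other scalings, 2 other filters, no robust shrinkage, the replicate number as a block and birds left out; removal of the trend with genomic span was added after seeing the data. The test was checked on simulated counts with known changes. For genes it recovered 59 of 100 log2 changes of 1 and 97 of 100 of 2, with 14 false among 170 calls. For transcripts it recovered 53 and 92 of 100, with 11 false among 156 calls. A true change of 1 or less could thus often be missed.

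Values are given bird by bird for members with an unadjusted p under 0.05, members whose groups do not overlap and 25 core muscle genes, 28 in all, of which 1 is not reported here. The other 18 are given by their range. From each partner list up to 6 genes with an unadjusted p under 0.05 and the smallest p are named. The members and lists were chosen with earlier results of these data known. The labels do not say whether birds differ in any other way. The p-values of edgeR, DESeq2 and limma-voom set the difference between the groups against the spread of birds within them, and rest on these 8 birds. Markers of endothelium, nerve and Schwann cells, red cells, fat cells and leukocytes were also listed: 9 of 9 endothelial, 1 of 2 nerve, 4 of 5 red cell, 3 of 5 fat cell and 2 of 7 leukocyte genes measured had a higher mean at high shear force, and 0 passed the adjusted threshold in edgeR or limma-voom. Over all genes 5147 of 10136 had a positive log2 fold change. DESeq2, which called 1.21% of all genes tested, called 3 red cell genes (HBAA, HBAD and HBB) and 1 fat cell gene (PLIN1) after adjustment, and none of the others. HBAA, HBAD and HBB were highest in high-force bird 2. Without low-force birds 1 and 3, 0 of the 5 red cell genes and 1 of the 5 fat cell genes, PLIN1, had an unadjusted p under 0.05 in edgeR (7.51% of all genes).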

Additional observations from a re-analysis of the deposited data

Results flagged for a closer look

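In 6 of 92 groups of 4 birds 1 bird stood far from the other 3 by Dixon's criterion at 95%, which chance alone does in about 1 group in 20. The count is near that rate. The rate holds for independent groups, whereas these genes share the same 8 libraries, and the share over all genes is not given here. ITPR3 was at 6.72 CPM in low-force bird 4, against 8.07 to 8.23 CPM in the others of its group. STIM1 was at 14.2 CPM in high-force bird 3, against 8.78 to 9.52 CPM. ATP2B4 was at 63.97 CPM in high-force bird 3, against 37.8 to 41.7 CPM. ATP1B4 was at 352 CPM in low-force bird 1, against 182 to 206 CPM. SCN2B was at 14.4 CPM in low-force bird 3, against 3.86 to 5.38 CPM. KCNQ5 was at 9.58 CPM in low-force bird 4, against 15.8 to 17.02 CPM in the others of its group.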

How the results depend on the processing

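No member had an adjusted p under 0.05 in edgeR, DESeq2 or limma-voom, nor under any scaling, filter, block or left-out bird tried; the smallest was 0.105, for RYR3 without low-force bird 4. Over all alternatives the adjusted p ran from 0.105 to 0.87 for RYR3, from 0.195 to 0.569 for KCNK1 and from 0.156 to 0.727 for KCNQ5. The 4 genes with an unadjusted p under 0.05 (8.7% against 12.8% of all genes) became 7, or 15.2%, without a filter (10.1% of all genes) and by DESeq2 (13.2%). With 1 bird left out they ran from 2, without bird 2 of the high-force (8.89% of all genes) or bird 1 of the low-force group (7.75%), to 7, without bird 1 of the high-force (14.6%) or bird 4 of the low-force group (18.6%). Without low-force birds 1 and 3 there were 8, or 17.4% against 7.51%, of which 2 were among the 4. The 5 transcripts of 48 became 9, or 18.8%, by DESeq2 (12.9% of all transcripts) and without those 2 birds (7.24%). They ran from 2 (without low-force bird 1, against 7.48%) to 9 (without low-force bird 4, against 17.9%), with 3 without high-force bird 2 (8.42%). Members without overlap numbered 1 with upper-quartile scaling, or 2.17% against 6.4%, and 12 without birds 1 and 3, or 26.1% against 17%. With 1 bird left out the lowest number was 2, or 4.35%, without high-force bird 2 (8.32% of all genes). The highest was 8, or 17.4%, without low-force bird 4 (15.1%). Between these were 3, or 6.52%, without high-force bird 3 (9.49%) or low-force bird 1 (8.22%). There were 4, or 8.7%, without low-force bird 2 (10.6%) or 3 (7.95%). Without high-force bird 4 there were 5, or 10.9% (8.36%), and without high-force bird 1 there were 6, or 13% (13.5%). The median of the members moved in every alternative by less than 0.23, the SD over low-force birds of the median deviation of the members (log2). That SD is a spread of single birds, birds 1 and 3 among them, and not an error of the median. It therefore cannot show that the median is stable. The median crossed 0 without low-force bird 3 (0.0061) and without birds 1 and 3 (0.12).

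With the replicate number as a block 6 members (13% against 14.9% of all genes) and 6 transcripts (12.5% against 14.1%) had an unadjusted p under 0.05, with 0.163 as the smallest adjusted p. Same-numbered birds correlated at 0.0141, -0.00316, 0.205 and 0.318 in their deviations from the group means. Only those numbered 4 matched each other best, and low-force bird 3 matched high-force bird 3 best, but not the reverse. The main test did not pair birds by number, and these few correlations cannot show whether the numbers mark pairs.

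The sign held in 25 of 46 members under every alternative, among them RYR3, KCNK1 and KCNQ5. Without low-force birds 1 and 3 it turned in 16: CACNA1S 0.30, CACNB1 0.64, CACNA2D1 0.29, ITPR2 0.33, CASQ2 0.099, JPH2 1.21, STIM1 0.31, STIM2 0.24, ATP2B4 0.015, SCN4A 0.066, CLCN1 0.34, CLCN7 -0.063, KCNJ11 -0.10, KCNMA1 0.0196, TRPV2 0.17 and CHRNA5 0.77. It turned under the block for CACNB1 (0.096), JPH2 (0.18), TRPV2 (0.012) and CHRNA5 (0.048), with limma-voom for CACNB1 (0.092), JPH2 (0.17), TRPV2 (0.0103) and CHRNA5 (0.023), and with upper-quartile scaling for CACNB1 (0.0196) and TRPV2 (0.019). With 1 bird left out, log2 fold changes that crossed 0 ran from -0.25 to 0.24 for CACNB1, -0.33 to 0.11 for ITPR2, -0.23 to 0.064 for STIM1, -0.20 to 0.062 for STIM2, -0.10 to 0.23 for KCNJ11, -0.10 to 0.14 for TRPV2, -0.37 to 0.62 for JPH2 and -0.33 to 0.075 for CLCN1. They ran from -0.39 to 0.45 for CHRNA5, -0.40 to 0.15 for CHRNA1, -0.31 to 0.085 for CACNA1S, -0.0083 to 0.20 for ITPR1, -0.058 to 0.36 for JPH3, -0.048 to 0.075 for ORAI1 and -0.027 to 0.21 for ATP2A3. The cause of these turns was not tested.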
